A study of Rattus norvegicus with 25 samples.

Results

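The genes described here repair DNA bases that carry an added methyl group or the mispairs that follow from them: the direct reversal genes Mgmt, Alkbh2 and Alkbh3, the glycosylase gene Mpg, the mismatch repair genes Msh6 and Pms2, and the base excision repair genes Xrcc1 and Polb. They were chosen by name, because the carcinogen of the study methylates DNA. Of the 8 genes listed, 7 had a probe that a RefSeq accession in the array files named, and all 7 were tested, among 12360 genes tested and 15443 with a named probe. Msh6 had no probe named in this way, and its level is not analysed here.

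Transcripts were measured in esophageal epithelium of 25 male F344 rats, 5 per group, on 1-colour Agilent arrays with 1 array for each animal. The Control group was kept on a normal diet without carcinogen. NMBA rats, on a normal diet, received N-nitrosomethylbenzylamine, a carcinogen of the rat esophagus. Rats of the remaining groups were given NMBA plus alpha-tocopherol, delta-tocopherol or a gamma-enriched tocopherol preparation. These vitamin E forms differ in the methyl groups on the chromanol ring, of which alpha-tocopherol carries the most and delta-tocopherol the fewest. The sources used here do not give ages, doses, routes or times, nor whether the epithelium held tumours when it was taken. There were 4 slides. Slide 1 held all alpha rats with delta rats 1 to 3. Slide 2 held all gamma-enriched rats with delta rats 4 and 5 and with Control rat 1. Slide 3 held the other Control rats with NMBA rats 1 to 4, and NMBA rat 5 was alone on slide 4. Between NMBA and the tocopherol groups, slide and treatment therefore can hardly be told apart. On each array 70.6% to 79.8% of spots were well above background, and 0 spots were saturated.

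Methylating nitrosamines place methyl groups on several positions of DNA bases. The methyltransferase encoded by Mgmt moves the methyl group from the O6 position of guanine to a cysteine of its own and is consumed in doing so. O6-methylguanine that remains pairs with thymine at replication, and the mispair is recognised by mismatch repair, in which MSH6 takes part in binding the mispair and PMS2 in making the incision. Methylated purines such as 3-methyladenine are cut out by the glycosylase of Mpg, after which the gap is filled by the DNA polymerase of Polb on the scaffold protein of Xrcc1. The dioxygenases of Alkbh2 and Alkbh3 remove methyl groups from the base-pairing face of adenine and cytosine, ALKBH2 mainly in double-stranded and ALKBH3 in single-stranded nucleic acid.

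RefSeq's promoter table, on the GRCr8 rat assembly, held entries for 7 of the 8 genes, with none for Polb. The promoters of Mgmt and Mpg are shown because Mgmt is the member whose transcript differed most between groups and Mpg is the next by size of its difference. Each line gives the 250 bases before the annotated start on the gene's strand, 5′ to 3′, at chr1:201140582-201140831 on the plus strand for Mgmt and chr10:15906925-15907174 on the minus strand for Mpg. Capitals mark GC boxes, the letters GGGCGG on either strand, which read CCGCCC where the box lies on the opposite strand.
Mgmt: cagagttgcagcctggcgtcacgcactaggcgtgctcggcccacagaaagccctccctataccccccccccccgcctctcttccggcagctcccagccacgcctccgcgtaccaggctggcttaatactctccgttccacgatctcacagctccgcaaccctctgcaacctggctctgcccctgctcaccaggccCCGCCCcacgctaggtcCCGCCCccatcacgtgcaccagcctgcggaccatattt
Mpg: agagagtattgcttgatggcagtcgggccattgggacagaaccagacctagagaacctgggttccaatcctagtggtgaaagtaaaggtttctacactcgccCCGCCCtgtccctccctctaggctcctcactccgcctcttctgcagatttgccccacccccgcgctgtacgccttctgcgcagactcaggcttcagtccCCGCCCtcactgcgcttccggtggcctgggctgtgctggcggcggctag
Each of these windows holds 2 GC boxes, as does that of Msh6, while those of Alkbh2 and Pms2 hold 1 and those of Alkbh3 and Xrcc1 hold 0. Among all 33469 windows of this length in the table, 30.5% hold at least 1. The Mgmt window is 66.4% G and C and has 17 CpG pairs, and 79.9% of windows have that many or fewer, with a median of 5. The letters TGANTCA (an AP-1 site), GAAA repeated with any 2 bases between (an interferon response core) and TGACGTCA (a cAMP response element) were searched on both strands. They occur in 6.3%, 3.4% and 1.6% of all windows and in none of the members' windows. These matches describe the letters of the windows only.

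The values below are log2 signals from which each array's own 75th percentile was subtracted, so 0 is that percentile and a step of 1 is a doubling. They can be compared between rats for a gene, but not between genes, since probes differ in brightness. Each of the 7 genes was read by 1 probe printed on 2 spots per array, and that probe was well above background on all 25 arrays. Over rats of the same group the SD ran from 0.14 for Xrcc1 to 0.38 for Pms2, against a median of 0.33 over all genes tested. In a sample of whole epithelium, more cells of a kind and more transcript per cell cannot be told apart.

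**Figure D1:**
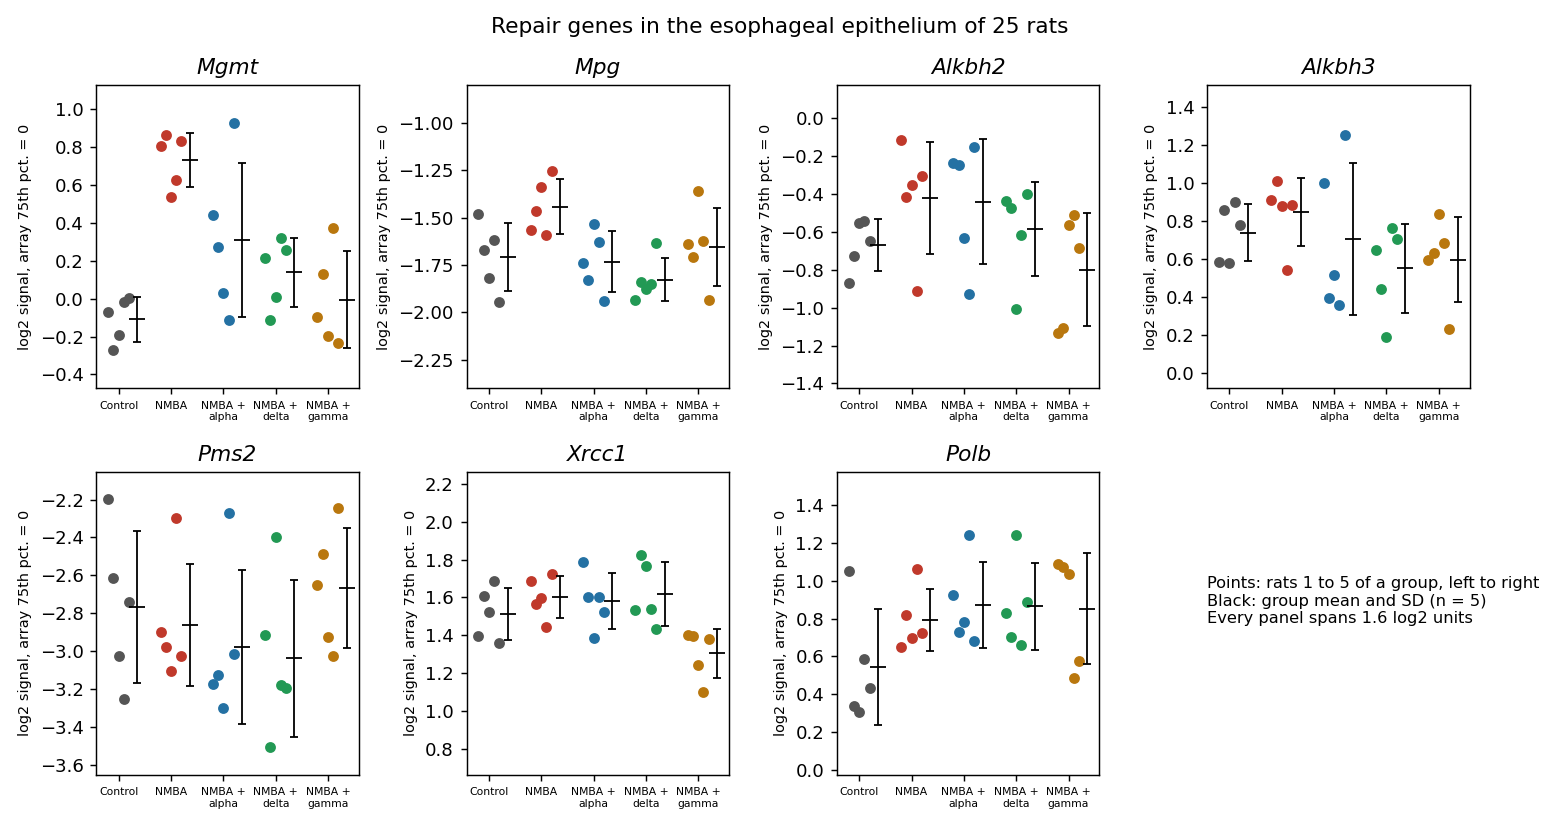
The log2 signal of each repair gene relative to the array's 75th percentile (y axis) by group (x axis). Points are rats, black bars the group mean and SD (n = 5), and each panel spans the same number of log2 units. Mgmt in the 5 NMBA rats lies between 0.54 and 0.86, above all 5 Control rats, whose highest value is 0.01.

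The comparison of NMBA with Control rats shows what differed in the epithelium after the methylating carcinogen. Mgmt, the gene of O6-methylguanine reversal, was higher in NMBA rats, and it was the only one of the 7 members to pass the test (1 of 7). Over all genes tested, 1.55% passed in this comparison and 1.31% passed in the direction of a rise. Members other than Pms2 had a positive difference (6 of 7), and the median difference of the 7 was 0.25, against 0.05 over all genes.

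In Control rats 1 to 5, Mgmt stood at −0.07, −0.27, −0.19, −0.02 and 0.01. The NMBA rats had 0.81, 0.86, 0.54, 0.63 and 0.84. Every NMBA rat was above every Control rat, with a gap between the groups wider than the spread within either. The groups did not overlap in 4% of all genes tested. The difference was 0.84 ± 0.16 log2 units (SE; 95% interval 0.51 to 1.17), or 1.79-fold (limma, adjusted p = 0.00579, n = 5 rats per group). Read from each of its spots alone, it was 0.83 and 0.85. On slide 3, which held 4 rats of each group, it was 0.83 (adjusted p = 0.0510 in that smaller set), and with slide as a fixed block it was 0.83 (adjusted p = 0.0465).

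The other direct reversal genes were not called. Alkbh2 had −0.87, −0.73, −0.55, −0.54 and −0.65 in Control rats and −0.12, −0.42, −0.35, −0.91 and −0.31 in NMBA rats. Of these NMBA rats, 4 lay above all Control rats and rat 4 lay below them all, so that the difference of 0.25 (95% interval −0.11 to 0.61) did not pass (adjusted p = 0.582). Alkbh3 had 0.58, 0.86, 0.58, 0.90 and 0.78 in Control rats and 0.91, 1.01, 0.88, 0.54 and 0.88 in NMBA rats. Its groups overlapped, rat 4 being again the lowest of the NMBA rats, and the difference was 0.11 (−0.23 to 0.45; adjusted p = 0.819).

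Mpg, which starts base excision at methylated purines, had −1.48, −1.67, −1.82, −1.62 and −1.94 in Control rats. In NMBA rats it had −1.56, −1.47, −1.34, −1.59 and −1.25. Most NMBA rats (3 of 5) were above all Control rats, and the groups overlapped. The difference of 0.26 ± 0.12 (0.02 to 0.51) did not pass after adjustment over all genes (adjusted p = 0.360). With arrays weighted by quality it was 0.27 and passed (adjusted p = 0.0456), in a fit that called 2100 genes.

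Of the later steps of base excision, neither member passed. Polb, the gap-filling polymerase, was at 1.05, 0.34, 0.31, 0.59 and 0.43 in Control rats and at 0.65, 0.82, 0.70, 1.06 and 0.73 in NMBA rats. Control rat 1 was nearly as high as the highest NMBA rat while the other Control rats were below all NMBA rats. The difference was 0.25 (−0.09 to 0.58; adjusted p = 0.551). Xrcc1, the scaffold of the repair complex, had the narrowest spread. It stood at 1.40, 1.61, 1.52, 1.68 and 1.36 in Control rats and at 1.69, 1.56, 1.59, 1.44 and 1.73 in NMBA rats, overlapping, with a difference of 0.09 (−0.13 to 0.31; adjusted p = 0.759).

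Pms2, whose protein makes the incision in mismatch repair, varied most. Control rats had −2.20, −2.62, −3.03, −3.25 and −2.74, and NMBA rats had −2.90, −2.98, −3.11, −2.30 and −3.02. Both groups spanned nearly the same range. The difference was −0.09, with an interval (−0.57 to 0.39) that leaves room for a change of either sign (adjusted p = 0.897).

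**Figure D2:**
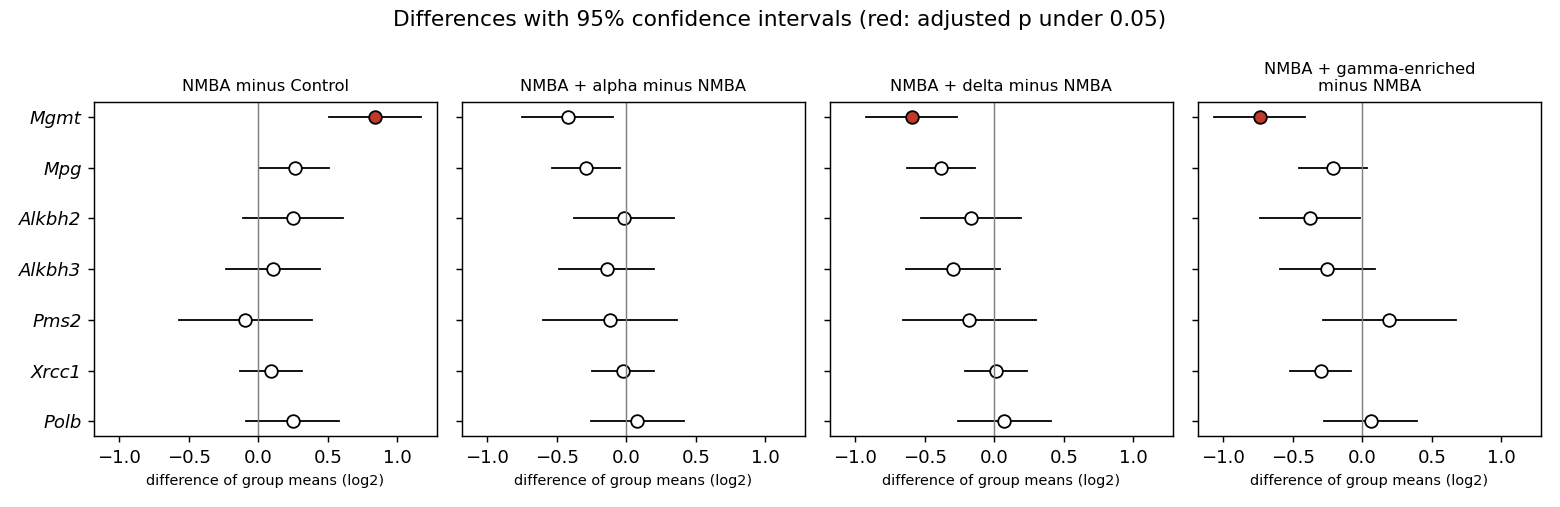
Difference of group means in log2 units (x axis) for each repair gene (y axis) in 4 comparisons, with 95% confidence intervals (n = 5 rats per group). Filled points passed at an adjusted p under 0.05. Mgmt lies at 0.84 for NMBA against Control and at −0.42, −0.59 and −0.74 for the alpha, delta and gamma-enriched groups against NMBA.

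The tocopherol groups were set against NMBA to show how the members stood when NMBA was given with each vitamin E form. These comparisons share their NMBA rats with each other and with the comparison above, so a value opposite in sign to that of NMBA against Control is in part built in. In the delta and gamma-enriched groups Mgmt was lower than in NMBA rats, while in the alpha group it did not pass. No other member passed in these comparisons in the fit used here. Thus 0 of 7 members passed for alpha (limma), where 3.71% of all genes passed. For delta it was 1 of 7, where 2.49% of all genes passed and 2.02% fell. For gamma-enriched it was 1 of 7, where 8.99% of all genes passed and 7.4% fell. In the alpha comparison 2 of 7 members and 2272 of 12360 genes had an unadjusted p under 0.05 (limma). The median difference of the members was −0.12 for alpha, −0.18 for delta and −0.25 for gamma-enriched, against −0.03, −0.05 and −0.10 over all genes.

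In the gamma-enriched group Mgmt stood at −0.10, 0.13, −0.20, 0.37 and −0.23 in rats 1 to 5. All were below all NMBA rats, in a comparison where 7.09% of genes had groups that did not overlap. The difference was −0.74 ± 0.16 (−1.07 to −0.41; adjusted p = 0.00714), a level 0.60 times that of NMBA rats. Delta rats had 0.22, −0.11, 0.01, 0.32 and 0.26, again all below all NMBA rats (5.71% of genes did not overlap here). The difference of −0.59 (−0.92 to −0.26) passed narrowly (adjusted p = 0.0476). It no longer passed in 9 of the 10 fits that left out 1 rat, where it ran from −0.64 to −0.53 with an adjusted p up to 0.111; it passed without NMBA rat 4 (−0.62).

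Alpha rats had 0.44, 0.27, 0.03, −0.11 and 0.93, the widest spread of any group for this gene (SD 0.41). Rats 1 to 4 were below all NMBA rats and rat 5 was above them all. The difference of −0.42 (−0.75 to −0.09) had an adjusted p of 0.145. Without alpha rat 5 it was −0.58 and passed (adjusted p = 0.0275). It also passed with all rats in the fit and arrays weighted by quality (−0.50, adjusted p = 0.0131). That weighting may lower the part of rat 5, and its fit called 1456 genes, against 459 without weights. With slide as a fixed block, where the tocopherol and NMBA rats are linked only through Control rat 1, the differences for alpha, delta and gamma-enriched were −0.20, −0.47 and −0.76, and none passed (adjusted p = 0.855, 0.724 and 0.998). In that fit 1 gene of 12360 was called in each of these comparisons.

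Set against Control, Mgmt was 0.42 higher in the alpha group (0.09 to 0.75; adjusted p = 0.232), 0.25 higher in the delta group (−0.08 to 0.58; adjusted p = 0.602) and 0.10 higher in the gamma-enriched group (−0.23 to 0.43; adjusted p = 0.751). None of the members passed against Control in these groups (limma), where 0.817%, 0.194% and 0.623% of all genes passed. At an unadjusted p under 0.05 (limma) there were 1, 0 and 0 of 7 members. Over all 12360 genes there were 1688, 1333 and 2280. Ordered by group mean, Mgmt was highest in NMBA rats (0.73), followed by alpha (0.31), delta (0.14), gamma-enriched (−0.004) and Control (−0.11). Neighbours in this order overlapped, NMBA and alpha through alpha rat 5, and no difference between neighbours passed. On slide 2 alone, Control rat 1 at −0.07 lay within the range of the gamma-enriched rats.

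The tocopherol forms were also compared with each other. Mgmt was −0.17 in delta against alpha (−0.50 to 0.16; adjusted p = 0.9998), −0.32 in gamma-enriched against alpha (−0.64 to 0.01; adjusted p = 0.359) and −0.14 in gamma-enriched against delta (−0.47 to 0.19; adjusted p = 0.949). These intervals hold 0 and also hold differences as large as 0.64 log2 units, so they do not show that the forms act alike. No member passed in any of these comparisons (limma), where 0%, 1.63% and 0% of all genes passed. At an unadjusted p under 0.05 (limma) there were 0, 2 and 1 of 7 members. Over all 12360 genes there were 573, 1815 and 504.

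Among the other members, Mpg was lower than in NMBA rats in every delta rat, at −1.94, −1.84, −1.88, −1.85 and −1.63. The delta rats did not overlap with the NMBA rats, in a comparison where 5.71% of genes had groups that did not overlap. The difference of −0.38 (−0.63 to −0.14) did not pass (limma, adjusted p = 0.0730). The alpha rats, at −1.74, −1.83, −1.53, −1.63 and −1.94, and the gamma-enriched rats, at −1.64, −1.71, −1.36, −1.62 and −1.93, had 4 of 5 rats below all NMBA rats in each group. Their differences were −0.29 (adjusted p = 0.183) and −0.21 (adjusted p = 0.269). Group means of Mpg in the tocopherol groups lay between −1.83 and −1.65, and that of Control rats was −1.71.

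Xrcc1 had its lowest group mean in the gamma-enriched group, at 1.40, 1.40, 1.24, 1.10 and 1.38. These rats did not overlap with the NMBA rats or with the delta rats (1.53, 1.83, 1.76, 1.54 and 1.43). The difference from NMBA was −0.30 ± 0.11 (−0.52 to −0.08; adjusted p = 0.0797), where groups did not overlap in 7.09% of genes. From delta it was −0.31 (−0.54 to −0.09; adjusted p = 0.949), where groups did not overlap in 0.769% of genes. The 2 spots of Xrcc1 differed on an array by up to 0.80, with an SD of 0.24, against 0.14 between rats of a group. With slide as a random block the difference from NMBA was −0.31 and passed (limma, adjusted p = 0.0393). That fit called 1803 genes, against 1111 without a block, and its correlation between arrays of a slide was −0.03. With slide as a fixed block the difference from NMBA was −0.12 (adjusted p = 0.998). Control rat 1, on the slide of the gamma-enriched rats, had 1.40, within their range. Alpha rats had 1.79, 1.60, 1.39, 1.60 and 1.52, which overlapped with NMBA rats.

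Polb did not follow the order seen for Mgmt. It was at 0.92, 0.73, 0.78, 1.24 and 0.68 in alpha rats, at 0.83, 0.70, 1.24, 0.66 and 0.89 in delta rats and at 1.09, 1.07, 1.03, 0.49 and 0.58 in gamma-enriched rats. All of these ranges overlapped with that of the NMBA rats, and the differences from NMBA were 0.08, 0.07 and 0.06. Against Control the 3 tocopherol groups were 0.33, 0.32 and 0.31 higher, and none passed (adjusted p = 0.376, 0.492 and 0.311).

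Alkbh2 was lowest in the gamma-enriched group, at −1.13, −1.11, −0.56, −0.51 and −0.68, a difference of −0.38 from NMBA (−0.74 to −0.02; adjusted p = 0.167). The alpha rats, at −0.24, −0.25, −0.63, −0.93 and −0.15, and the delta rats, at −0.44, −0.47, −1.01, −0.62 and −0.40, differed from NMBA by −0.02 and −0.17. Alkbh3 differed from NMBA by −0.14, −0.30 and −0.25 in the alpha, delta and gamma-enriched groups, the lowest adjusted p being 0.325. It ran from 0.36 to 1.25 in alpha rats, with rat 5, the rat of high Mgmt, the highest. Pms2 differed by −0.12, −0.18 and 0.19, and rats of each tocopherol group spanned from at most −3.02 to at least −2.40.

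Alkbh2 moved with the overall brightness of the array, and so, less closely, did Alkbh3 and Pms2. Brightness is the array's 75th percentile of signal, which ran from 3088 to 8096 and was subtracted (as log2) from every value, so that a negative relation is in part built in. Over all 12360 genes the median r with brightness was −0.14, and 60.5% of genes had a negative r. The relation was examined for the 7 members after their values had been seen. Over the 25 rats Alkbh2 fell as brightness rose (Pearson r = −0.80, Spearman rho = −0.79, each with a permutation p of 1e-05 from 100000 resamples, the smallest they can give, and 7e-05 adjusted over the 7 genes). It kept an r of −0.76 without the 2 rats farthest from the median brightness and of −0.76 after group means were removed. Within slides 1, 2 and 3 r was −0.89, −0.77 and −0.70. An r at least as large in size was found in 4.23% of all genes.

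For Alkbh3 r was −0.55 (rho = −0.58; permutation p = 0.00509 and 0.00287, adjusted 0.0119 and 0.0100), and it was −0.54 without the 2 farthest rats and −0.69, −0.56 and −0.78 within the slides. For Pms2 r was 0.57 (rho = 0.50; permutation p = 0.00331 and 0.0120, adjusted 0.0116 and 0.0280), 0.52 without those rats and 0.49, 0.71 and 0.28 within the slides. An r of that size or more was found in 27.7% of all genes for Alkbh3 and in 25.4% for Pms2, so relations of that size were common on the arrays. Mgmt had r = −0.44 (rho = −0.43; permutation p = 0.0289 and 0.0326, adjusted 0.0506 and 0.0570), r = −0.46 without the 2 farthest rats and −0.67, −0.10 and −0.27 within slides. After group means were removed the r of Mgmt was −0.33. An r at least as large in size as its −0.44 was found in 40.5% of all genes. The part of brightness in the differences between groups was not tested. Mpg, Xrcc1 and Polb had r between −0.27 and 0.25, with adjusted p of 0.260 or more.

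**Figure D3:**
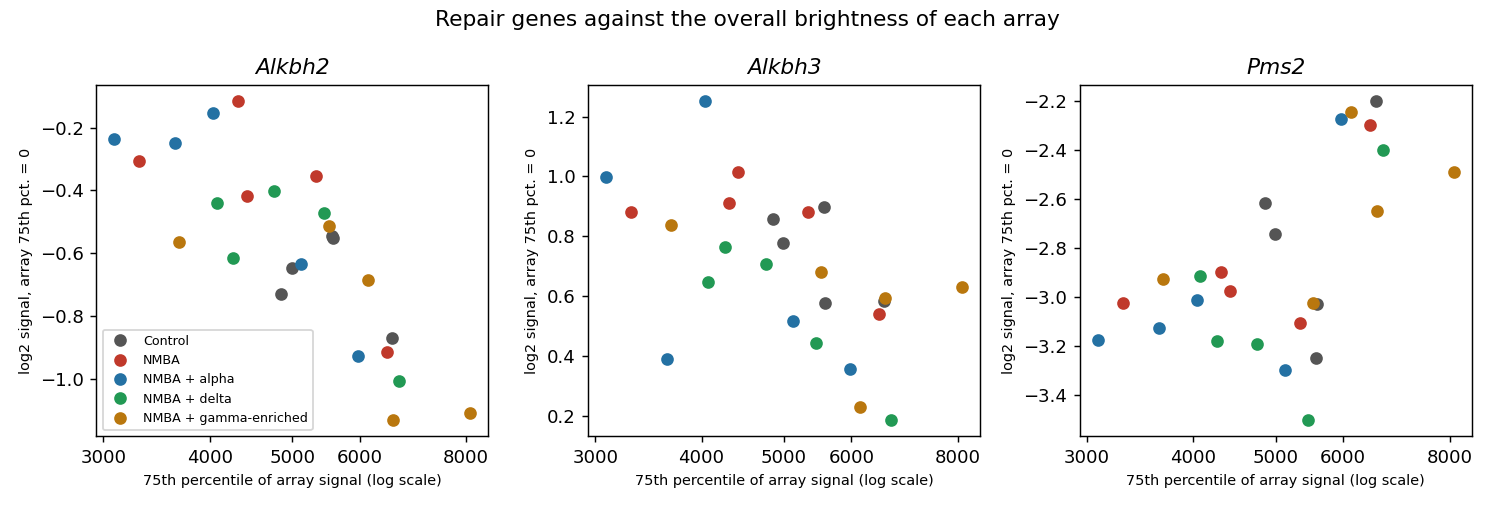
The log2 signal of Alkbh2, Alkbh3 and Pms2 relative to the array's 75th percentile (y axis) against that percentile (x axis, log scale), 1 point per rat, coloured by group. Alkbh2 (r = −0.80) and Alkbh3 (r = −0.55) fall as arrays get brighter and Pms2 (r = 0.57) rises, over all groups.

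The members did not vary as 1 set. Over the 25 rats, as a description, Alkbh2 and Pms2 had a Pearson r of −0.68 (−0.69 after group means were removed), and Alkbh2 and Polb −0.48 (−0.71). Mgmt went with Alkbh3 (0.59, and 0.70 after group means were removed). Alpha rat 5 was the highest rat for both, and its part in this r was not tested. Alkbh2 had r = 0.57 with Mgmt and 0.57 with Alkbh3 (0.47 and 0.56 after group means were removed). Mgmt and Xrcc1 had r = 0.20, and Mgmt and Polb had r near 0. All these values share the array and its scaling.

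Wider lists of repair genes, which include members, give the setting. Of 91 repair and checkpoint genes listed, 74 were tested, with a median difference of 0.16 in NMBA against Control. Results of the wider mismatch repair list and the count over all these genes are not given for that comparison. The list of direct reversal and alkyl base removal includes Mgmt, Mpg, Alkbh2 and Alkbh3. In it 7 of 9 genes were tested and Mgmt alone passed. Fto, an RNA demethylase, was at 0.15, and the helicase partners Ascc1 and Ascc2 at 0.01 and 0.11. None of 8 glycosylase genes passed (limma; 0 at an unadjusted p under 0.05), Ung and Smug1, which remove uracil, being at −0.10 and 0.05. In the later steps of base excision, a list that includes Xrcc1 and Polb, 0 of 13 passed (limma), and the median was 0.21. Of these, 3 had an unadjusted p under 0.05 (limma). Over all 12360 genes, 1.55% passed and 1582 had an unadjusted p under 0.05 (limma).

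Among checkpoint genes 2 of 8 passed, where 1.55% of all genes passed. Cdkn1a, a cyclin-dependent kinase inhibitor that halts the cell cycle, had 0.85, 1.36, 1.44, 1.44 and 1.58 in Control rats. In NMBA rats it had 1.94, 1.88, 2.07, 2.27 and 2.47, without overlap, where 4% of all genes did not overlap. It rose by 0.79 ± 0.14 (limma, adjusted p = 0.00428). Btg2, an antiproliferative gene, rose by 0.69 ± 0.15 (adjusted p = 0.0172). Within slide 3, Cdkn1a was at 0.58 (adjusted p = 0.128) and Btg2 at 0.56 (adjusted p = 0.170). Leaving out 1 rat at a time, Cdkn1a passed in 10 of 10 fits and Btg2 in 7. With the mean of its kept probes in place of the brightest, Cdkn1a was at 0.55 and did not pass (limma, adjusted p = 0.0945). With only the 2 groups compared neither passed (limma, adjusted p = 0.0607 for Cdkn1a and 0.0646 for Btg2). Gadd45a stood at −0.12. None passed among 5 translesion, 11 homologous recombination and 6 nucleotide excision repair genes tested (limma; 0, 2 and 0 at an unadjusted p under 0.05). Their examples were Polh at 0.29, Brca1 at 0.29, Xpa at 0.06 and Xpc at 0.06.

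Against NMBA, 1 of these 74 repair genes rose in the alpha group, where 3.71% of all genes passed. In the delta group 1 fell, where 2.49% of all genes passed, and that gene was Mgmt. In the gamma-enriched group 1 rose and 3 fell, Mgmt among the latter, where 8.99% of all genes passed. In alpha rats Rad50, of the complex that binds broken ends, stood at −2.21, −2.22, −2.60, −2.22 and −2.34. NMBA rats had −2.62, −2.81, −3.30, −3.24 and −2.73, and the rise was 0.62 ± 0.16 (limma, adjusted p = 0.0305). In gamma-enriched rats Parg rose by 1.03 ± 0.25 (limma, adjusted p = 0.0137), without overlap, where 7.09% of genes did not overlap. Its product removes poly(ADP-ribose) from proteins. Parp1, which makes that polymer at strand breaks and helps recruit the XRCC1 protein, fell by 0.33 on the log2 scale (adjusted p = 0.0400), from 0.86 to 1.08 in NMBA rats to 0.42 to 0.83. Rfc3, a clamp loader subunit, fell by 0.51 (adjusted p = 0.0449). Leaving out 1 rat at a time, Parg passed in 10 of 10 fits, Rad50 in 5, Rfc3 in 3 and Parp1 in 1, with adjusted p up to 0.0946 for Rad50, 0.124 for Rfc3 and 0.105 for Parp1. With slide as a fixed block none of these passed, with an adjusted p of 0.598 for Rad50 and 0.998 for the others.

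Markers of T and NK cells, and to a smaller extent some epithelial markers, differed between groups in the direction that Mgmt did. All 7 epithelial markers (such as Krt5, Tp63 and Cdh1) were above background on all 25 arrays, and 0 of 7 passed in NMBA against Control (limma; 3 at an unadjusted p under 0.05), although all 7 differences were positive, with a median of 0.20. In that comparison 1.55% of all 12360 genes passed, and 1582 had an unadjusted p under 0.05 (limma). Against NMBA, 1, 1 and 3 of the 7 epithelial markers fell in the alpha, delta and gamma-enriched groups, with medians of −0.43, −0.20 and −0.29. Of all genes, 3.71%, 2.49% and 8.99% passed there. In the same groups 1, 2 and 1 of the 7 had a positive difference from NMBA. Those that fell were the keratins Krt5 in alpha rats (−0.58), Krt4 in delta rats (−0.69) and Krt14, Krt4 and Krt13 in gamma-enriched rats (−0.74, −0.81 and −0.81). Of 9 T and NK cell markers, 7 rose in NMBA rats, with a median difference of 1.67. Against NMBA, 6, 7 and 8 fell in the alpha, delta and gamma-enriched groups. The shares of all genes that passed were those given for the epithelial markers. The defining genes Cd3d, Cd3e and Cd3g were above background on all 25 arrays and Cd8b on 14. A score, the mean of the 9 genes after centring each on its mean over the rats, ran from −0.64 to 0.11 in Control, 0.18 to 1.71 in NMBA, −0.95 to 0.32 in alpha, −0.84 to 0.47 in delta and −1.17 to −0.01 in gamma-enriched rats.

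Over the 25 rats Cd3e, a marker of this list, had a Pearson r of 0.79 with Mgmt (0.49 after group means were removed). The relation of the whole score with Mgmt over all rats was not computed. Marker score and Mgmt did not move together in every rat, and the rats named next were picked for that. NMBA rat 4 had a score of 0.18, within the range of alpha and delta rats, and Mgmt at 0.63. Alpha rat 5 had a score of 0.11, like the highest Control rat, and the highest Mgmt of all rats, 0.93. The part of either cell type in the Mgmt difference was not tested. Dividing-cell genes passed in 0 of 7 cases in NMBA against Control (limma; 1 at an unadjusted p under 0.05), with a median of 0.19, and the fibroblast list had a median of −0.59 with 0 of 6 passing (3 at an unadjusted p under 0.05).

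**Figure D4:**
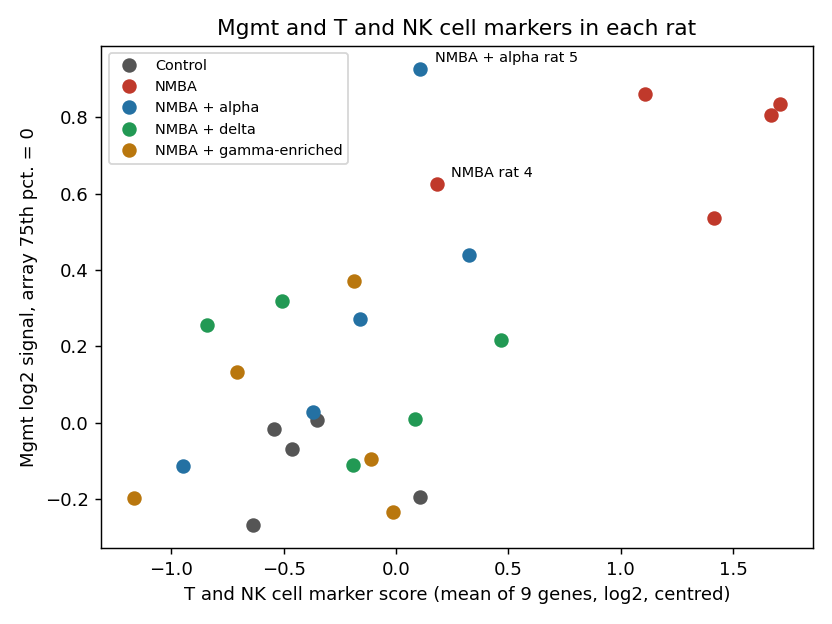
Mgmt log2 signal relative to the array's 75th percentile (y axis) against the T and NK cell marker score (x axis, log2, mean of 9 centred genes), 1 point per rat, coloured by group. Among NMBA rats 4 have both values high. NMBA rat 4 (score 0.18) and alpha rat 5 (score 0.11), labelled because they depart from this, have high Mgmt at a low score.

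The genes most like Mgmt over the 25 rats were Thyn1 (Pearson r = 0.83), Slc27a4, Epsti1, Gart and Cd3e (each 0.79), picked from all genes tested. After group means were removed, r was 0.71, 0.44, 0.64, 0.65 and 0.49. Cd3e, a subunit of the T cell receptor complex, rose by 2.11 in NMBA rats. Gart, an enzyme of purine synthesis, rose by 0.56, while Epsti1, an interferon-induced gene, stood at 1.09 and did not pass (adjusted p = 0.109).

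Across the processing settings the difference of Mgmt between NMBA and Control stayed between 0.80 and 0.89, and it passed in every setting but the one within slide 3. For gamma-enriched against NMBA it passed in every setting but slide as a fixed block.

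**Figure D5:**
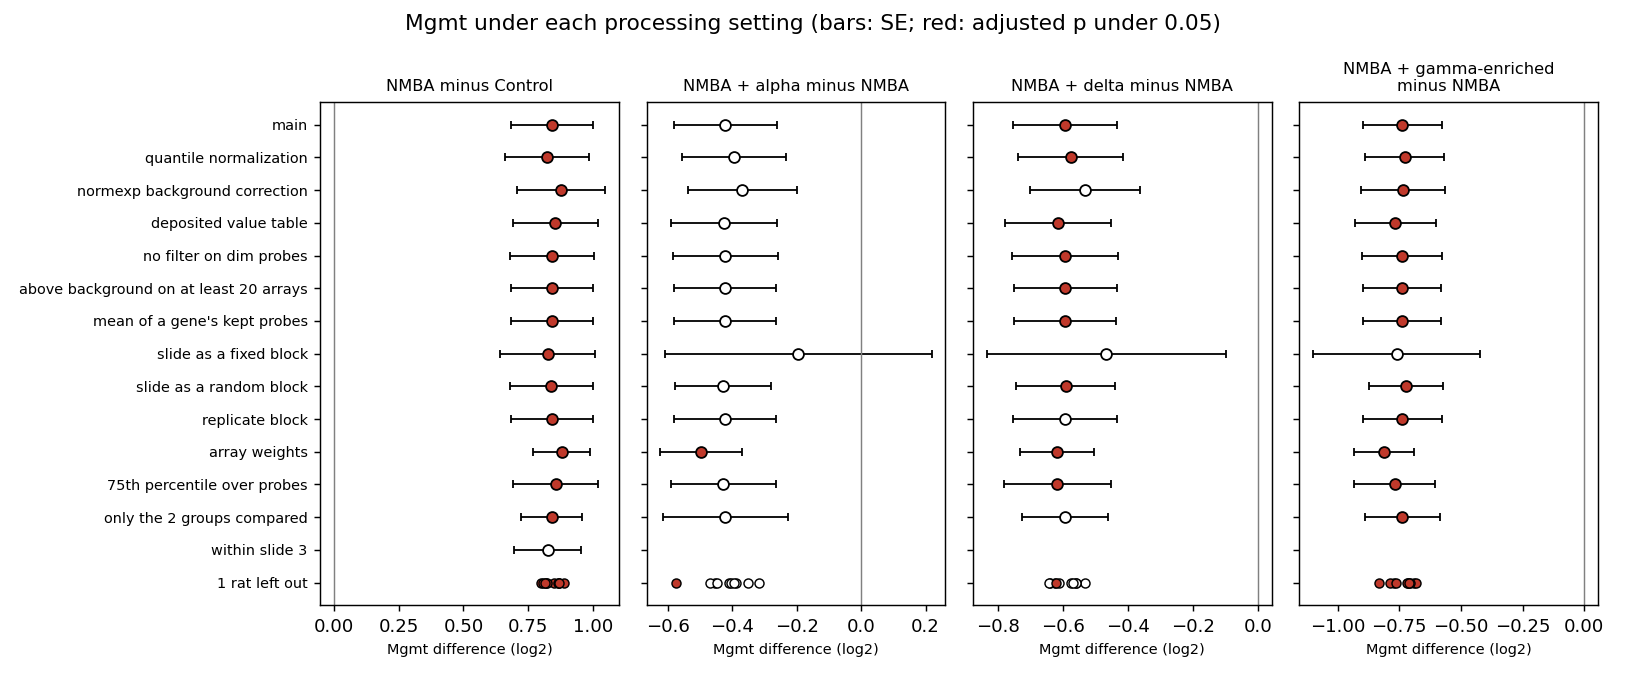
Mgmt difference in log2 units (x axis) in 4 comparisons under each processing setting (y axis), with bars for the SE, and in the bottom row each fit that left out 1 rat. Filled points passed at an adjusted p under 0.05. For NMBA against Control the values lie between 0.80 and 0.89.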

How the data were processed

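RNA of 25 rats was measured on Agilent arrays. The array files hold the scanner's processed intensity, background-subtracted within each array per the file headers, which name Feature Extraction 11.5.1.1, whereas the submitters' processing notes name 10.7. The deposited value table holds log2 values that followed the same signals (r = 1 in each column) and served as an alternative. Outlier spots were dropped, log2 signals of a probe's spots averaged and each array's 75th percentile subtracted. Of 30367 probes, 18355 were named through RefSeq accessions (table of the GRCr8 assembly). Probes well above background on at least 5 arrays were kept, with the brightest probe per gene. limma 3.58.1 (R 4.3.3) fitted 5 group means to all 25 arrays, with 10 two-sided contrasts and Benjamini-Hochberg adjustment over 12360 genes at 0.05. The fit was tested on simulated data. Each rat is 1 replicate, as labelled. Some genes of the wider lists are withheld for evaluation and not reported here. The members, gene lists and naming rule (all members, every list gene that passed up to 8 per list, examples from lists with no call, and the 5 genes most alike) were chosen with earlier results of these data known. Alternatives changed the background correction, normalization, filters, probe choice, blocks for slide and rat number, array weights, groups fitted and rats included; normexp used median signals. The number of arrays limits the precision.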

Additional observations from a re-analysis of the deposited data

Results flagged for a closer look

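Groups of 5 rats were examined for a rat far from the other 4, in 35 combinations of gene and group. Chance marks about 1 in 20, and 3 were marked. NMBA rat 4 was far below the other NMBA rats for Alkbh3 (0.54, nearest other 0.88). The same rat was far above them for Pms2 (−2.30, nearest other −2.90). Alpha rat 4 was far above the other alpha rats for Pms2 (−2.27, nearest other −3.01). Both rats had bright arrays (75th percentile 6459 and 5970), the brightest of their groups.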

How the results depend on the processing

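Counts of members that passed changed as follows. With array weights 2 passed for NMBA against Control, 1 for alpha, 2 for delta and 4 for gamma-enriched against NMBA, and 1 for gamma-enriched against alpha; that fit also called 5191 genes for gamma-enriched against NMBA. Within slide 3, 0 passed for NMBA against Control. For delta against NMBA 0 passed with normexp (chosen after seeing the data), with slide as a fixed block, with only the 2 groups compared and with rat number as a replicate block. For gamma-enriched against NMBA 0 passed with slide as a fixed block and 2 with slide as a random block. Leaving out 1 rat gave 0 to 1 for alpha and 0 to 1 for delta against NMBA, and no change in the other comparisons. Rfc3 for gamma-enriched against NMBA turned to 0.048 with slide as a fixed block, the only called value that changed sign; the cause was not tested. Of the other values of single genes, 68 lost and 9 gained a call with the direction kept, among them Mgmt in delta against NMBA, Parp1 and Rfc3.

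Rat numbers do not pair the samples: same-numbered rats of different groups had a median correlation of −0.05 (12 of 50 pairs over 0.1). With this replicate block Mgmt stood at 0.84 for NMBA against Control and −0.59 for delta against NMBA (adjusted p = 0.0666), and genes called went from 192 to 155 and from 308 to 162. Slide as a fixed block left 62 genes for NMBA against Control and 1 in each tocopherol group against NMBA.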
